A study of Mus musculus with 4 samples.

Results

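The macrophages in 4 single-cell RNA libraries of sorted embryonic mouse skin are described here. Macrophages were the barcodes with at least 2000 genes detected and under 10% mitochondrial UMIs that held at least 5 C1qa, C1qb and C1qc UMIs per 10000, under 10 Krt5 and Krt14 UMIs per 10000 and under 20 Col1a1, Col1a2 and Col3a1 UMIs per 10000. The members were thus chosen by measured values, their C1q, keratin and collagen UMIs. A UMI is a molecular tag that counts 1 captured RNA molecule. The rule found 883 macrophages among the 11221 barcodes past the quality filter, which were drawn from 19789 barcodes in all. Ctrl replicate 1 held 79 of them, Ctrl replicate 2 held 125, TKO replicate 1 held 265 and TKO replicate 2 held 414.

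The study asked what the loss of H3K9me3, a repressive histone mark, does to the developing epidermis. Dorsal skin of embryos labelled E16.5, for which a litter list of the study gives an earlier day, was dissociated and sorted for Epcam and α6 integrin, both surface proteins of basal keratinocytes, and 1 library was made from each of 4 embryos. All 4 embryos were homozygous for floxed Suv39h1 and floxed Setdb1, all lacked Suv39h2 (Suv39h2-/-), and all were exposed to tamoxifen. The 2 TKO embryos carried K14CreERT2, a tamoxifen-activated recombinase under the keratin 14 promoter of basal keratinocytes, and the 2 Ctrl embryos did not. The recombination is mosaic according to the study, the promoter is not one of macrophages, and no group here has an intact Suv39h2. The labels call the sorted cells basal epithelial cells, and the study set immune cells aside as contaminants of the sort, so the macrophages come from outside the intended gate. Keratinocytes, used here for comparison, were the 8312 barcodes past the same filter with at least 10 Krt5 and Krt14 UMIs and under 5 C1q UMIs per 10000.

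Macrophages are phagocytes that settle in the skin before birth, where they take up dying cells, debris and haemoglobin, recycle iron and lipid, and secrete chemokines and growth factors. In embryonic dermis a population marked by the mannose receptor Mrc1, the hyaluronan receptor Lyve1 and the coagulation factor subunit F13a1 lies along vessels and nerves, while Langerhans cells, the macrophage-related cells of the epidermis, gain Cd207 and MHC class II only as they mature. Survival of macrophages depends on the receptor Csf1r and its ligands Csf1 and Il34, the latter made by keratinocytes.

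The macrophages were deeply covered. Their UMIs summed to 1712695 in Ctrl replicate 1, 2101287 in Ctrl replicate 2, 5900986 in TKO replicate 1 and 9762017 in TKO replicate 2. A macrophage held a median of 20609, 14530, 20741 and 20005 UMIs in that order, and a median of 4661, 4214, 5051 and 4851 genes. The C1q genes that chose the cells lay far above the threshold of 5, with medians between 64.1 and 82.8 UMIs per 10000. Just inside the threshold, 5 macrophages held between 5 and 10 C1q UMIs per 10000, and just outside it 18 barcodes held between 1 and 5. No macrophage barcode was shared between libraries.

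Macrophages made up a larger share of the sorted cells in both TKO libraries than in either Ctrl library. Of the barcodes past the filter they were 2.47% in Ctrl replicate 1 (95% Clopper-Pearson interval 1.96 to 3.07), 3.69% in Ctrl replicate 2 (3.08 to 4.38), 12.3% in TKO replicate 1 (10.9 to 13.7) and 16.7% in TKO replicate 2 (15.3 to 18.3). The intervals, which cover counting error only, did not overlap between the genotypes. The mean was 3.08% ± 0.859 (SD, n = 2) in Ctrl and 14.5% ± 3.17 (SD, n = 2) in TKO, a 4.71-fold ratio and a difference of 11.4 percentage points. An exact two-sided permutation test gave p = 0.333, the smallest that 2 libraries against 2 allow. Per 100 keratinocytes there were 3.37 and 4.44 macrophages in Ctrl and 18.0 and 24.6 in TKO. These are shares of a sorted suspension, so more macrophages in the skin, fewer keratinocytes and a different yield of the sort cannot be told apart.

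**Figure D1:**
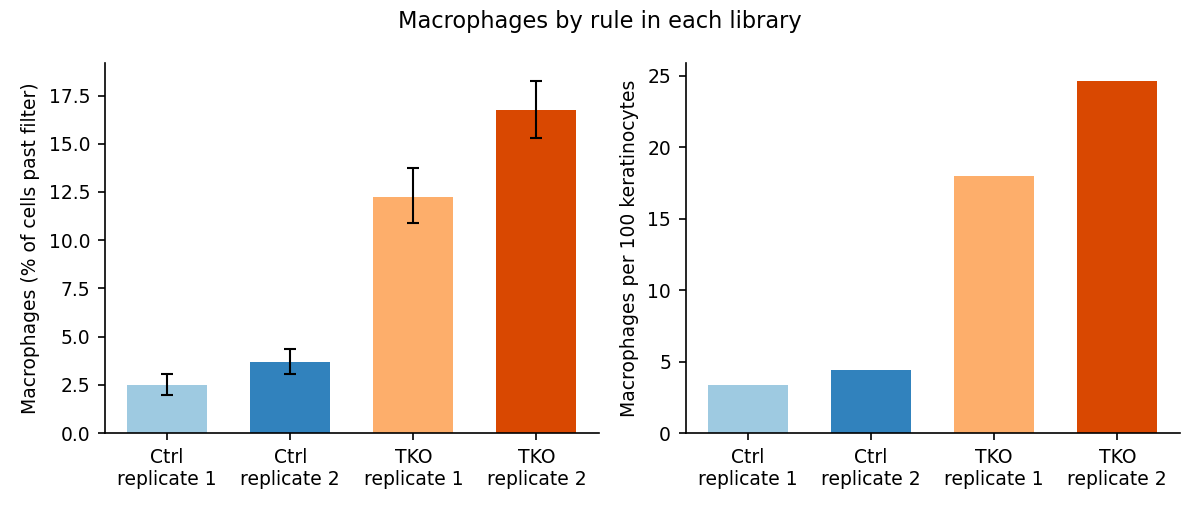
Macrophages as a percentage of the barcodes past the quality filter, with the 95% Clopper-Pearson interval (left), and macrophages per 100 keratinocytes (right), 1 bar for each library. In the left panel the Ctrl intervals end at 4.38% or lower and the TKO intervals begin at 10.9% or higher.

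Other cells outside the intended gate were also more frequent in TKO. Barcodes at or above the collagen limit, as fibroblasts would be, were 3.35% and 3.10% of cells in Ctrl against 7.96% and 5.46% in TKO, and Ptprc+ immune cells other than macrophages numbered 4 and 4 in Ctrl against 15 and 16 in TKO. Their part in the result was not tested. Keratinocytes were also deeper in TKO, with a median of 30914 and 28232.5 UMIs against 22081 and 17526 in Ctrl, whereas macrophage depth did not separate the genotypes.

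The sort marker itself was nearly absent from the macrophages. Levels are given throughout as CPM, the UMIs of a gene summed over the macrophages of a library per 1000000 of their UMIs outside the globin genes, which took up to 12.6% of all macrophage UMIs. Epcam read 4.68 and 1.06 CPM in the Ctrl macrophages and 2.11 and 1.56 CPM in the TKO macrophages, against 206 to 264 CPM in the keratinocytes of the same libraries. Itga6, the α6 integrin, read 154, 118, 148 and 137 CPM in the macrophages in the same order (Ctrl replicates 1 and 2, then TKO replicates 1 and 2, as in every list of 4 values that follows). In keratinocytes Itga6 lay between 332 and 409 CPM, so the macrophages carried the RNA of the integrin but hardly any of Epcam.

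The label of macrophage held against genes that the rule did not use. The list of macrophage identity genes held 21 besides the C1q genes, and each of them was detected in each library. Among them, the lysozyme Lyz2 read 1962, 2633, 2369 and 2112 CPM, the membrane protein gene Ms4a7 read 241, 243, 275 and 201 CPM, and the selenium carrier Selenop read 2324, 2375, 2107 and 1881 CPM. All 3 stood at 2.11 CPM or lower in the keratinocytes of every library. Csf1r read 805, 717, 621 and 591 CPM, the myeloid transcription factor Spi1 read 400, 398, 437 and 415 CPM, and Adgre1, which encodes F4/80, read 338, 288, 332 and 358 CPM. Ptprc, the CD45 antigen of blood cells, read 145, 181, 182 and 200 CPM.

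The 20 genes with the largest ratio to keratinocytes among those at 100 CPM or more included Spi1, Cd163, Mrc1, Pik3ap1, F13a1, Cd86, Lyve1, Ms4a6d, Clec4a2, Ifi207, Ms4a4a, Ms4a7, Ccl24, Adgre1, C1qc, Cybb, Clec10a, Laptm5 and Fcrls. They include scavenger receptors (Mrc1, Cd163), lectins (Clec4a2, Clec10a) and the oxidase subunit Cybb. The ratio of mean levels was 6306 for Spi1 and 3317 for Fcrls. Among the most counted genes outside the ribosomal and mitochondrial ones were 4 adult globin genes, Tmsb4x, Apoe, Ftl1, Fth1, Actb, F13a1, Pf4, Mrc1, Rbpj, Ctsb and Maf. The ratios to keratinocytes describe how the cells were chosen and are no test.

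**Figure D2:**
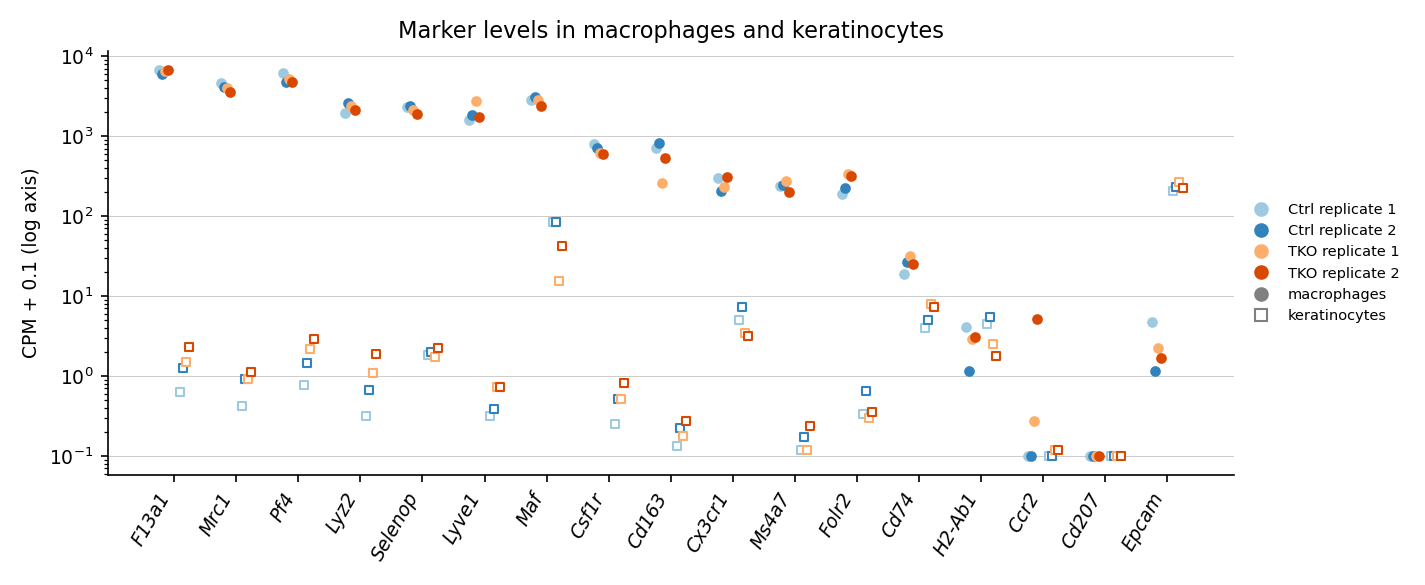
Level of marker genes in CPM plus 0.1 on a log axis, with filled circles for macrophages, open squares for keratinocytes and a colour for each library. F13a1, Mrc1, Pf4, Selenop and Maf lie above 1000 CPM in the macrophages of all 4 libraries, Cd207 lies at the value of 0 UMIs, and Epcam lies higher in keratinocytes.

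The macrophages were of the Mrc1+ Lyve1+ F13a1+ kind. Mrc1 read 4684, 4167, 3945 and 3592 CPM, and F13a1 read 6711, 6055, 6534 and 6707 CPM. The platelet-factor chemokine Pf4 read 6076, 4779, 5180 and 4823 CPM. After each cell was thinned to 5000 UMIs, which left out 8 macrophages of lower depth, Mrc1 was seen in 100%, 100%, 100% and 99.8% of macrophages, F13a1 in 100%, 99.2%, 98.9% and 98.5%, and Pf4 in 98.7%, 99.2%, 99.2% and 98.5%. Keratinocytes thinned in the same way held an Mrc1 UMI in 0.129% to 0.814% of cells, the background of a cell type that should lack the gene. Nearly every macrophage in every library therefore held the RNA of these 3 genes.

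Lyve1 was common but less uniform. Lyve1 was seen in 86.1%, 91.1%, 92.8% and 88.2% of thinned macrophages, and its level was 1589, 1857, 2714 and 1750 CPM, highest in TKO replicate 1 with the other TKO library among the Ctrl values. The chemokine receptor Cx3cr1 was seen in 58.2%, 46.0%, 51.5% and 58.6% of macrophages, with overlapping genotypes. Trem2, a lipid receptor of tissue macrophages, read 251, 185, 180 and 295 CPM, and P2ry12, a purine receptor best known in microglia, read 136, 82.8, 141 and 155 CPM. The microglial transcription factor Sall1 was at 0 UMIs in all 4 libraries.

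Defining genes of monocytes and Langerhans cells were at or near 0, while some other members of those lists were read. Ly6c2, the surface antigen of classical monocytes, had 0 UMIs in all macrophages, and S100a9 and Chil3 also had none. Ccr2, the monocyte chemokine receptor, read 0, 0, 0.176 and 5.11 CPM. Cd207 was in 0 of 79, 0 of 124, 0 of 264 and 0 of 408 thinned macrophages, which allows shares of cells with a UMI of up to 3.797%, 2.42%, 1.14% and 0.735%. Of 12 Langerhans cell genes 5 could be tested, with Cd48, a leukocyte antigen, at 74.9, 77.5, 85.1 and 117 CPM and Cd24a at 94.9, 122, 23.9 and 46.2 CPM. Cd24a is also an erythroid gene and read 11.5 CPM or less in the globin-poor macrophages described later. Of 14 monocyte genes 3 could be tested, the highest being Itgal, an integrin, at 8.02, 6.37, 11.6 and 15.6 CPM. The MHC class II genes were low. H2-Ab1 read 4.01, 1.06, 2.81 and 3.001 CPM and the invariant chain Cd74 read 18.7, 26.5, 32.0 and 25.01 CPM. H2-Ab1 was seen in 1.27%, 0.806%, 1.52% and 1.72% of thinned macrophages against 2.06%, 2.33%, 1.36% and 0.298% of thinned keratinocytes, so in both Ctrl libraries its share lay under that of a cell type with little MHC class II, and no expression is read from it. Cd74 was seen in 5.06%, 11.3%, 11.7% and 10.5% of thinned macrophages, above the 1.97%, 2.15%, 3.46% and 3.52% of thinned keratinocytes. The costimulatory ligand Cd86 was not low, at 769, 1155, 1101 and 817 CPM.

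T cell and innate lymphoid genes were nearly missing. Of 14 T and innate lymphoid genes 6 had 0 UMIs in all macrophages and the other 8 were too low to test, with Cd3e and Cd3g at 0. Of 10 neutrophil genes 4 had none, including Ly6g, and 2 were tested, of which Csf3r, the receptor of a granulocyte growth factor, read 12.7, 21.8, 15.6 and 19.0 CPM. Of 10 dendritic cell genes 3 were tested, with the transcription factor gene Zbtb46 at 26.1, 19.6, 21.4 and 24.5 CPM, while Xcr1 read 0, 0, 0.176 and 0 CPM. The B cell receptor subunit gene Cd79b read 40.1, 39.8, 31.5 and 31.9 CPM. Mast cell genes were the exception and are described with the genotype comparison.

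1 library stood apart from the other 3. The macrophages of TKO replicate 2 carried the highest level of 28 of 30 tested interferon-response genes, so results on such genes are given with and without it. Single barcodes also weighed on some genes. In each TKO library 1 macrophage barcode was rich in mast cell transcripts, at 299 and 555 UMIs per 10000, and 1 in TKO replicate 1 held embryonic globin. Of the longer list of mast cell genes, at least 10 UMIs of 5000 were held by 1 macrophage of TKO replicate 1 and 2 of TKO replicate 2. In TKO replicate 2, 1 macrophage held 371 keratinocyte-list UMIs of 5000, against highest values of 64, 13 and 10 in the other libraries. The summed level of 20 keratinocyte genes other than Krt5 and Krt14 was 851, 405, 246 and 1008 CPM in the macrophages, which was 2.37% to 6.19% of the level in keratinocytes.

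The targeted genes came first in the comparison of genotypes. Setdb1, an H3K9 methyltransferase (chromosome 3, 95229399 to 95264541, GRCm39, positions here and below from GENCODE vM39), read 126 and 134 CPM in the Ctrl macrophages and 107 and 109 CPM in the TKO macrophages. Both TKO values lay below both Ctrl values, and the log2 change of -0.29 ± 0.13 (SE) was not called (edgeR quasi-likelihood test, adjusted p = 0.786). In keratinocytes Setdb1 read 71.7, 58.9, 39.8 and 42.8 CPM and was called lower in TKO (log2 -0.65, edgeR adjusted p = 0.0383). The 2 changes did not differ past the threshold (interaction 0.43 ± 0.18, edgeR adjusted p = 0.431), which does not show that they were alike.

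Suv39h1 and Suv39h2, the other H3K9 methyltransferases of the design, were low. Suv39h1 (chromosome X, 7927403 to 7940999) read 19.4, 15.4, 21.8 and 21.6 CPM in macrophages, a log2 change of 0.31 ± 0.22 that was not called. Suv39h2 (chromosome 2, 3455774 to 3476146) still gave 13, 3, 39 and 78 UMIs in the macrophages, although every embryo carried its deletion. All macrophage UMIs summed to 1712695, 2101287, 5900986 and 9762017, so these counts are not levels. The log2 change of Suv39h2 was 0.67 and was not called. The libraries count 3' tags and the place of the floxed or deleted exons is not used here, so these levels do not check recombination in any cell.

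No gene was called between TKO and Ctrl macrophages in the main fit. Of 11804 genes tested, edgeR's quasi-likelihood test with Benjamini-Hochberg adjustment called 0 raised and 0 lowered (0.00% each) at an adjusted p under 0.05. At an unadjusted p under 0.05 there were 724 genes (6.13%), and DESeq2 called 4 raised and 14 lowered. Without its expression filter edgeR called more genes than DESeq2 did, as given with the processing below. Both TKO libraries lay above both Ctrl libraries for 20.02% of genes and below them for 16.7%, and these shares are the background for every list described here. The median log2 change over all genes was -0.00. With 1 embryo per library, p-values measure the spread between 2 embryos of each genotype.

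The genes with the smallest p on the raised side began with mast cell proteases. Tpsb2, a tryptase, read 0 and 0.531 CPM in Ctrl and 37.4 and 23.7 CPM in TKO, and Cpa3, a carboxypeptidase, read 0.668 and 0.531 CPM in Ctrl and 67.0 and 33.0 CPM in TKO. The chymase Cma1 read 6.01, 2.12, 81.2 and 44.9 CPM. None was called, with edgeR adjusted p = 0.267 for each. Without the 2 barcodes rich in mast cell transcripts the log2 change of Cma1 was -0.38 in place of 3.99, so the higher level in TKO was not seen without them.

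Arsb and Asph followed. Arsb (chromosome 13, 93907903 to 94079528), which encodes a lysosomal sulfatase, read 68.2 and 67.4 CPM in Ctrl and 132 and 146 CPM in TKO. That is a log2 change of 1.02 ± 0.14 (edgeR adjusted p = 0.366, unadjusted 0.000156). Asph (chromosome 4, 9448069 to 9669357), an aspartyl hydroxylase of the endoplasmic reticulum, read 39.4, 37.7, 73.5 and 78.1 CPM, a log2 change of 0.96 ± 0.15. For both genes the replicates lay close together and the genotypes did not overlap, yet neither passed the adjustment.

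On the lowered side were genes that belong to cells other than macrophages. Krt15, a keratin of basal keratinocytes, read 46.1, 41.9, 10.2 and 14.01 CPM in macrophages, and 4144, 5024, 1724 and 1687 CPM in keratinocytes, where it was called lower in TKO. Bpgm, the erythrocyte enzyme that makes bisphosphoglycerate, read 237, 183, 51.1 and 77.9 CPM. In macrophages with under 10 globin UMIs per 10000 the log2 change of Bpgm was 0.60 in place of -1.70. The ribosomal RNA gene Rn18s-rs5 was also on this side, at 9433, 8354, 5644 and 5429 CPM. Over thinned macrophages its variance was 939 times the mean in Ctrl replicate 1 and 63.3, 23.7 and 67.0 times the mean in the others, so its counts in Ctrl replicate 1 were spread very unevenly over the 79 cells.

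Macrophage identity genes did not separate the genotypes. Of the 21 besides C1q, 12 had a positive and 9 a negative log2 change around a median of 0.04, and the TKO libraries lay above Ctrl for 4 and below for 2. Csf1r was one of the latter, at 805, 717, 621 and 591 CPM (log2 -0.35 ± 0.12, edgeR adjusted p = 0.786). Among ligands of Csf1r in keratinocytes, Il34 read 6.48, 5.89, 2.77 and 8.14 CPM and Csf1 read 7.24, 20.1, 11.4 and 9.56 CPM, so neither separated the genotypes.

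Resident genes of dermal macrophages did not separate the genotypes as a list, and none was called. Folr2, a folate receptor, read 188 and 221 CPM in Ctrl and 334 and 315 CPM in TKO (log2 0.64 ± 0.13, edgeR adjusted p = 0.695). After thinning Folr2 was seen in 39.2%, 53.2%, 64.4% and 73.3% of macrophages against 0.0597% to 0.171% of keratinocytes, a difference of 22.6 percentage points that was larger than the spread within either genotype (exact permutation p = 0.333, the smallest possible). Without thinning the shares were 82.3%, 81.6%, 93.6% and 93.5%. The haemoglobin scavenger receptor Cd163 went the other way, at 700, 812, 255 and 529 CPM, and was seen in 60.8%, 73.4%, 43.2% and 58.1% of thinned macrophages. Both TKO libraries lay below both Ctrl libraries in level and in thinned share, but without thinning the shares were 72.2%, 80.8%, 59.2% and 72.9%, where TKO replicate 2 lay above Ctrl replicate 1. Over the 15 resident genes tested the median log2 change was 0.04. Both TKO libraries lay above both Ctrl libraries for 2 and below them for 3, against 20.02% and 16.7% of all genes.

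None of the iron and haem genes was called. Of 16 tested, 13 had a negative log2 change around a median of -0.26, and both TKO libraries lay below both Ctrl libraries for 7 of 16 against 16.7% of all genes. Ctrl replicate 2 held the highest value of 10 of the 16, or 62.5% against 25.5% of all genes, and without it the median was -0.14. Erythroid RNA was lower alongside: globin took 12.6%, 10.3%, 3.51% and 7.84% of macrophage UMIs, all 7 tested erythroid genes were highest in a Ctrl library, and their part in the result was not tested. Slc40a1, the iron exporter ferroportin, read 579, 695, 405 and 383 CPM (log2 -0.71 ± 0.14, edgeR adjusted p = 0.672), and Slc48a1, a haem transporter, read 174, 175, 94.4 and 121 CPM. The haem oxygenase Hmox1 overlapped, at 2679, 3580, 1706 and 3117 CPM.

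Glycolysis and hypoxia genes lay higher in TKO more often than genes in general. Of 25 tested, 20 had a positive log2 change around a median of 0.31, and both TKO libraries lay above both Ctrl libraries for 16 of 25 against 20.02% of all genes. The lactate dehydrogenase Ldha read 206, 217, 311 and 333 CPM (log2 0.59 ± 0.12, edgeR adjusted p = 0.695), and the enolase Eno1 read 111, 72.2, 164 and 161 CPM. The lactate exporter Slc16a3 read 16.0, 16.4, 27.8 and 27.5 CPM. None was called in macrophages, while 14 of 26 were called raised in keratinocytes (6.31% of all genes), with a median of 0.81 there. Per macrophage thinned to 5000 UMIs, the list held a median of 16, 14, 21 and 19 UMIs.

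Lysosomal genes were abundant, and none was called between genotypes. All 25 were tested, 17 with a positive log2 change around a median of 0.05, and the TKO libraries lay above Ctrl for 8 and below for 0. Cathepsin B (Ctsb) read 2568, 2965, 3095 and 2660 CPM, and cathepsin Z (Ctsz) read 606, 743, 915 and 796 CPM. Ctrl replicate 1 held the lowest value of 18 of the 25, and without it the median was -0.03.

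Chemokine and cytokine genes were read at high levels without a genotype difference past the test. Ccl2, which attracts monocytes, read 257, 416, 410 and 379 CPM, and Ccl4 read 170, 315, 151 and 173 CPM. Ccl24, an eosinophil attractant, read 332, 280, 348 and 242 CPM. Igf1, a growth factor of tissue macrophages, read 386, 402, 392 and 345 CPM, and Tgfb1 read 135, 127, 145 and 136 CPM. Il10 was near the floor, at 0.668, 0.531, 4.57 and 3.78 CPM. Of 20 tested cytokine and growth factor genes 10 had a positive log2 change and 10 a negative one. Lineage transcription factors were level too, with Maf at 2847, 3054, 2816 and 2411 CPM and Zeb2 at 2138, 1669, 1840 and 2138 CPM. Of 34 tested, 18 were positive and 16 negative around a median of 0.01.

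Immediate early genes, which dissociation is known to induce, had a negative log2 change for 23 of 29, with a median of -0.30, and none was called. Both TKO libraries lay below both Ctrl libraries for 9 of 29. Ctrl replicate 2 held the highest value of 17 of the 29 (58.6%, against 25.5% of all genes), and the median was -0.13 without it and -0.39 without Ctrl replicate 1. Fos read 836, 880, 624 and 666 CPM (log2 -0.43 ± 0.12, edgeR adjusted p = 0.786). Cell by cell the list did not follow genotype, with medians of 20, 36.5, 34 and 21 UMIs of 5000 in that order.

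Cell cycle genes were read in some of the macrophages. Mki67, a protein of proliferating nuclei, was seen in 32.9%, 21.8%, 36.4% and 34.6% of thinned macrophages, and the topoisomerase Top2a in 29.1%, 16.9%, 30.3% and 30.6%. Keratinocytes thinned in the same way held Mki67 in 36.1%, 34.1%, 47.6% and 42.7%. Of macrophages, 35.4%, 23.4%, 43.6% and 40.4% held at least 10 UMIs of the cell cycle list. Ctrl replicate 2 was lowest throughout, and its macrophages were also the shallowest. Of 32 genes tested, 27 had a positive log2 change around a median of 0.21, and without Ctrl replicate 2 that median was 0.02.

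In macrophages the interferon response separated 1 embryo from the other 3. Isg15, a ubiquitin-like protein induced by interferon, read 9.36, 12.2, 11.95 and 164 CPM, and the antiviral membrane protein gene Ifitm3 read 94.9, 99.2, 111 and 668 CPM. The transcription factor gene Irf7 read 8.02, 5.31, 9.31 and 68.6 CPM, and the nucleic acid sensor gene Zbp1 read 4.01, 4.24, 4.57 and 56.5 CPM. In each of these genes TKO replicate 1 lay with the Ctrl libraries. The median log2 change over 30 tested genes was 1.14 and none was called. TKO replicate 2 was highest for 93.3% of these genes against 19.4% of all genes tested.

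The pattern rested on that library. Without TKO replicate 1, edgeR called 103 genes raised and 16 lowered (0.952% and 0.148% of 10815), with 20 of 31 interferon genes among those raised. Without TKO replicate 2 it called 18 raised and 24 lowered (0.166% and 0.221% of 10854), none of them an interferon gene, and the list median was -0.00. Without Ctrl replicate 1 it called 1 raised (0.00737%) and without Ctrl replicate 2 it called 0. In the fits without a TKO library the lone TKO library is assumed to vary as the Ctrl libraries do. Not every list member was raised in TKO replicate 2: Irf1 read 17.4, 14.9, 8.79 and 14.6 CPM and Ifi207 read 402, 553, 488 and 447 CPM.

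Most macrophages of that embryo held more interferon-list RNA. Per cell thinned to 5000 UMIs, the list held a median of 6, 7, 8 and 17 UMIs, with 10th to 90th percentiles of 3 to 13, 3 to 15.7, 3 to 16 and 6 to 40. At least 10 list UMIs were held by 30.4%, 29.8%, 38.3% and 77.7% of macrophages, and by 0.514%, 2.76%, 2.71% and 4.95% of keratinocytes. In keratinocytes Isg15 read 0.473, 0.697, 0.584 and 17 CPM, so the same library was highest there too. The summed list read 232, 361, 480 and 628 CPM in keratinocytes, so there both TKO libraries lay above both Ctrl libraries. The list median log2 change in keratinocytes was 0.70, with 5 of 22 genes called raised (6.31% of all genes).

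**Figure D3:**
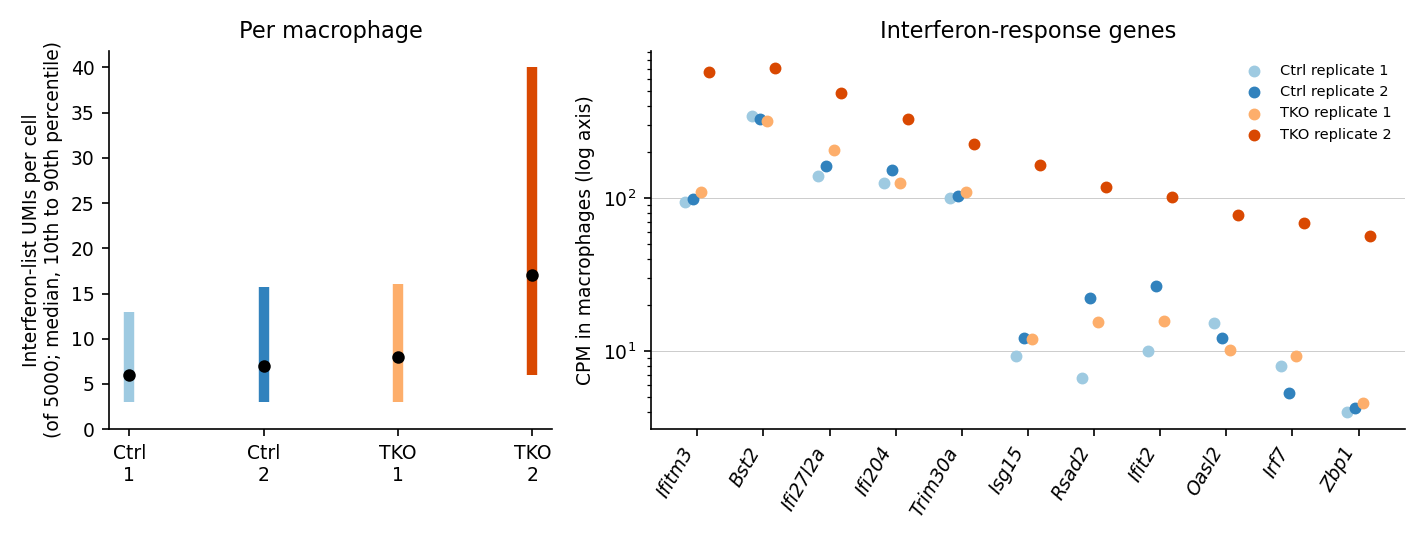
Left, interferon-list UMIs per macrophage thinned to 5000 UMIs, with the median as a point and the 10th to 90th percentile as a bar, for each library. Right, CPM of 11 interferon-response genes in the macrophages of each library on a log axis, where TKO replicate 2 lies above the other 3 libraries, for Isg15 at 164 against 12.2 CPM or less.

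Genes raised in TKO keratinocytes were compared in the macrophages of the same embryos. The 10 genes were listed from earlier results on these samples, so their direction in keratinocytes is no independent evidence, and all 10 were called raised there, with a median log2 change of 8.76. Their summed level in keratinocytes was 6.47, 4.11, 656 and 518 CPM, and in macrophages it was 37.4, 27.6, 67.1 and 29.8 CPM, with overlapping genotypes. Of the 10 only Cd28, a T cell costimulatory receptor, passed the expression filter in macrophages, at 31.4, 26.5, 61.5 and 23.6 CPM. In keratinocytes Cd28 read 0.405, 0.554, 28.2 and 35.0 CPM. The neuropeptide receptor gene Npffr1 read 0, 0, 0.351 and 0.222 CPM in macrophages against 0.0169, 0.0357, 23.4 and 24.8 CPM in keratinocytes.

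**Figure D4:**
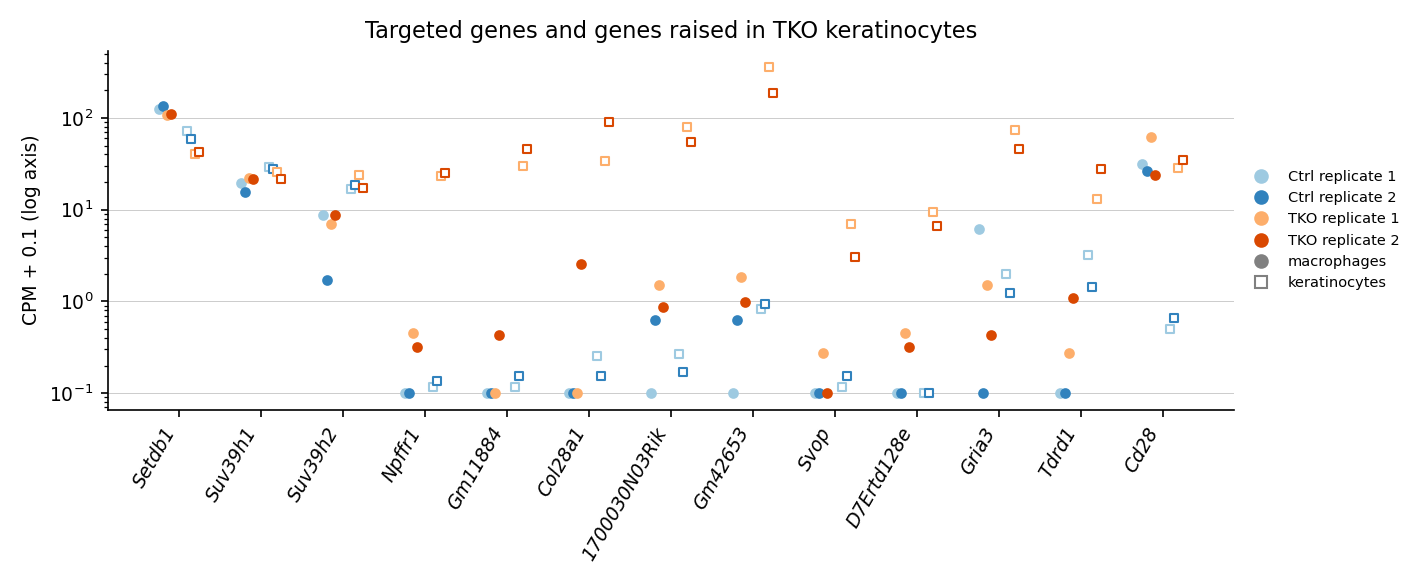
Level of the 3 targeted genes and of 10 genes raised in TKO keratinocytes, in CPM plus 0.1 on a log axis, with filled circles for macrophages and open squares for keratinocytes of each library. The orange squares of TKO keratinocytes lie above the blue squares of Ctrl for the 10 genes, while the circles of macrophages overlap between genotypes for Cd28.

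The genotype effect differed between macrophages and keratinocytes for 272 of 20174 genes tested (1.35%) by the interaction term of edgeR's quasi-likelihood test. It was more positive in macrophages for 133 genes (0.659%) and more negative for 139 (0.689%). These counts depended on single libraries: without Ctrl replicate 1 they were 57 and 64, without Ctrl replicate 2 they were 16 and 61, without TKO replicate 1 they were 247 and 267, and without TKO replicate 2 they were 300 and 266. Of the 272, 180 (66.2%) were also called in keratinocytes alone. Hmox1 was more negative in macrophages (interaction -2.55, edgeR adjusted p = 0.00025), as it was called higher in TKO keratinocytes, at 2.53, 2.25, 10.3 and 11.4 CPM. The share of keratinocytes with a UMI of the macrophage gene F13a1 was likewise higher in TKO, at 1.32%, 1.92%, 4.67% and 6.61% without thinning and 0.300%, 0.394%, 0.882% and 1.13% after it, and the part of macrophage RNA in the keratinocyte level of Hmox1 was not tested. Igf1 was more positive in macrophages (interaction 1.51, edgeR adjusted p = 0.000862), where it was level, than in keratinocytes, where it read 5.93, 6.02, 2.28 and 1.79 CPM. Of 22 genes of H3K9 methylation and silencing, none was called in macrophages, 2 were called raised and 1 lowered in keratinocytes (6.31% and 3.42% of all genes), and the macrophage median log2 change was -0.06.

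Globin RNA divided the macrophages of every library. Of the 883, 250 held at least 100 globin UMIs per 10000, called globin-bearing here, 623 held under 10, called globin-poor, and 10 lay between. The limits were chosen after the values were seen, so the comparison is a description with no test. Globin-bearing macrophages were 30.4%, 27.2%, 13.2% and 37.9% of the macrophages, so the genotypes overlapped. Their globin UMIs were a median of 32.9%, 29.4%, 21.9% and 18.6% of all their UMIs. Of the keratinocytes 0, 1, 0 and 0 were globin-bearing, and 250 of the 279 globin-bearing barcodes past the filter were macrophages. Over all barcodes 474 were globin-bearing, 274 of them with at least 5 C1q UMIs per 10000, and 185 of the rest failed the filter.

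Globin-bearing macrophages also held other erythroid RNA. Alas2, the first enzyme of haem synthesis in erythroid cells, read 835, 794, 457 and 388 CPM in globin-bearing and 0.961, 0.762, 1.23 and 1.36 CPM in globin-poor macrophages. Bpgm read 762, 626, 330 and 179 CPM against 6.72, 2.29, 7.57 and 5.82 CPM. Of 7078 genes at 20 CPM or more in either class, 87 (1.23%) were higher by a log2 difference of at least 0.5 and in 4 of 4 libraries, and 45 (0.636%) were lower. With no limit on size, 6.29% were higher and 9.37% lower in 4 of 4 libraries. The count of lower genes rose after thinning, as given with the processing below.

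Macrophage genes were nearly level between the 2 classes. Mrc1 differed by 0.07 ± 0.05 (SE) on the log2 scale, F13a1 by 0.09 ± 0.05 and Csf1r by 0.01 ± 0.08, and the median over 24 identity genes was 0.02. By the same limit on size and libraries, 3 of 15 iron and haem genes (Hmox1, Cd163 and Slc40a1) were lower in globin-bearing cells and 1 (Ncoa4) higher, and 1 of 15 lipid handling genes (Lpl) was lower and 0 higher. The list medians were -0.09 and -0.17. Hmox1 read 1333, 2796, 1288 and 1902 CPM in them against 3268, 3972, 1735 and 3977 CPM in globin-poor macrophages, a log2 difference of -0.80 ± 0.11. Cd163 read 411, 589, 200 and 319 CPM against 827, 903, 264 and 688 CPM, and Slc40a1 read 384, 488, 317 and 295 CPM against 664, 788, 411 and 445 CPM. Lyz2 and the lipase Lpl differed by -0.56 ± 0.07 and -0.91 ± 0.18. Ncoa4, which delivers ferritin to the lysosome, went the other way, at 213, 257, 196 and 152 CPM against 132, 120, 129 and 98.2 CPM. Blvrb, a biliverdin reductase, was higher in 4 of 4 libraries by 0.34 ± 0.08, under the limit on size.

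Depth and doublet scores stood beside this split. Outside the globin genes, globin-bearing macrophages held a median of 18190, 15226.5, 20669 and 18276 UMIs, and globin-poor ones 17746, 13402, 18643.5 and 18185. Of the 20 macrophages among the top doublet scores 12 were globin-bearing, against 250 of all 883 macrophages. By library the globin-bearing ones numbered 6, 4, 1 and 1, beside 1, 0, 4 and 3 globin-poor ones. The part of doublets in the split was not tested.

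**Figure D5:**
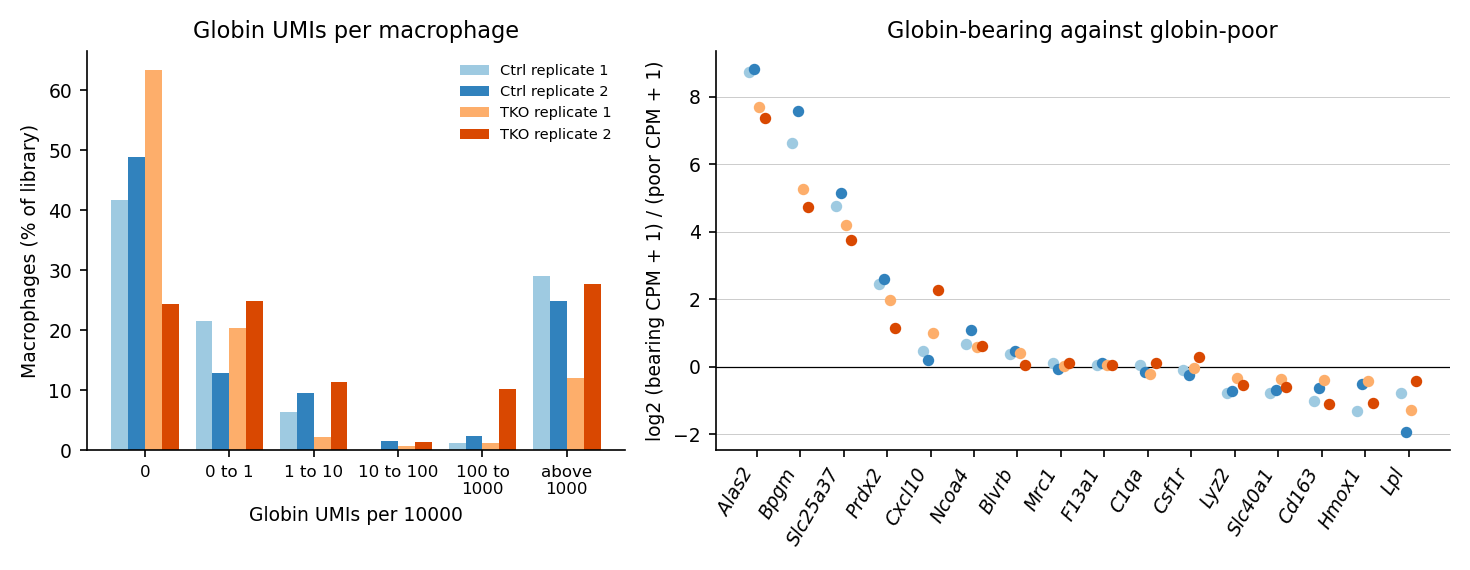
Left, percentage of the macrophages of each library in 6 classes of globin UMIs per 10000. Right, log2 ratio of CPM plus 1 in globin-bearing over globin-poor macrophages, 1 point for each library, with Alas2 and Bpgm far above 0, Mrc1 and F13a1 near 0, and Lyz2, Slc40a1, Cd163 and Hmox1 below 0 in all 4 libraries.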

How the data were processed

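The deposited files held, per the file headers, unnormalized UMI counts per gene and barcode that the authors made with Cell Ranger 7.1.0, and the submitters' processing notes name GRCm39. Libraries summed to between 70749496 and 89655247 UMIs over 3804 to 5785 barcodes. No ambient RNA correction was applied here. Doublets were scored with Scrublet in scanpy 1.11.5 (Python 3.11.15) and kept: at an assumed rate of 0.8% per 1000 barcodes the top scores held 20 macrophages, and the automatic threshold marked 61 barcodes, 5 of them macrophages.

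Counts were summed over the macrophages, and over the keratinocytes, of each library, with the globin genes left out of the library total. TKO was compared with Ctrl over 2 libraries each by edgeR 4.0.16 quasi-likelihood tests (R 4.3.3, TMM factors, genes passing its expression filter). The interaction was fitted over the sums of both classes. DESeq2 1.42.0, no filter, other factors, other cell rules, thinning and leaving out each library were the alternatives. Shares were compared after thinning each cell to 5000 UMIs, by exact permutation. Members and gene lists were chosen with earlier results of these data known.

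Named genes were, with none called, the 5 of smallest p on each side; in the interaction, the 5 on each side of largest fitted value among genes called, at 20 CPM or more in one group of either class and with no overlap between genotypes; the 20 of highest level and the 20 of largest ratio to keratinocytes, and otherwise members of the lists. A few genes that met these rules are not reported here. Replicate numbers did not pair the embryos: replicate differences in Ctrl and TKO correlated at r = -0.114 across 6619 genes, which are not independent replicates. On simulated counts for the macrophage comparison with 11804 genes, 44 of 100 genes changed 2-fold and 88 of 100 changed 4-fold were recovered, and 9 unchanged genes were called. For the interaction, with 20174 genes, 16 and 54 of 100 were recovered and 0 unchanged genes called. All these rates describe the simulated counts only. Whether they hold for libraries that differ in interferon, mast cell or erythroid RNA, as these did, was not tested.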

Additional observations from a re-analysis of the deposited data

Results flagged for a closer look

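The genotype effect differed between macrophages and keratinocytes by the interaction test for 272 genes. On the more positive side were Cpa3 (interaction 6.01 on the log2 scale, edgeR adjusted p = 0.0160), Adamts9 (4.48), Plcl1 (3.39), Lonrf3 (3.09) and Abtb2 (2.86). Adamts9 rested on 0, 4, 11 and 12 macrophage UMIs and was too low to be tested in macrophages alone. Its keratinocyte levels were 43.8, 53.1, 1.34 and 4.61 CPM. Its interaction ran from 3.62 to 12.54 without 1 library and missed the threshold without Ctrl replicate 1 (3.75, edgeR adjusted p = 0.173) or Ctrl replicate 2 (12.54, 0.127), in globin-poor macrophages (0.0515) and at 5000 UMIs per cell (0.778). Plcl1, a phospholipase C-like protein, read 2.67, 2.65, 2.64 and 5.00 CPM in macrophages and 95.4, 140, 11.9 and 21.7 CPM in keratinocytes, so the difference lay in the keratinocytes. Lonrf3 was read mainly in macrophages, at 18.7, 21.8, 52.2 and 23.9 CPM (log2 0.87, not called), with TKO replicate 1 highest. In keratinocytes Lonrf3 rested on 20, 36, 7 and 4 UMIs, near the floor (log2 -2.17), and the interaction takes in both changes. For Cpa3 the 2 barcodes rich in mast cell transcripts stood beside the result. Apart from leaving out 1 library, the interaction lost the call in 3 alternatives for Cpa3 and in 1 for Lonrf3.

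On the more negative side were Gm36551 (-15.86), Gria3 (-7.02), Gm41804 (-6.18), Cd28 (-5.55) and Nfam1 (-5.15). Gm36551 read 0, 1.59, 0 and 0 CPM in macrophages and 0.118, 0.0714, 25.4 and 28.7 CPM in keratinocytes. Its fitted value therefore depends on the prior count and is no bound. Apart from leaving out 1 library, Gm36551 lost the call in 2 alternatives. Gria3, a glutamate receptor subunit, read 1.89, 1.13, 73.4 and 46.0 CPM in keratinocytes and 6.01, 0, 1.41 and 0.333 CPM in macrophages. Its interaction turned to 1.89 without Ctrl replicate 1 and to 2.43 in globin-poor macrophages. Nfam1, an immune receptor, read 97.6, 124, 92.6 and 101 CPM in macrophages, with no separation of the genotypes, and at most 1.93 CPM in keratinocytes, from 2, 2, 99 and 35 UMIs. Keratinocytes with a UMI of the macrophage gene F13a1 were also more frequent in TKO, at 1.32%, 1.92%, 4.67% and 6.61%, and the part of macrophage RNA in this result was not tested.

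Barcodes that failed the quality filter also held C1q. At least 5 C1q UMIs per 10000 were found in 0.490% and 0.752% of such barcodes in Ctrl and in 3.29% and 4.27% in TKO, above both Ctrl libraries, as in the barcodes past the filter.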

How the results depend on the processing

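The macrophage share stayed higher in TKO under every alternative run, with a difference of 6.25 points over all barcodes and of 9.18 to 13.7 points without 1 library. Calls between genotypes depended on the processing: edgeR without a filter called 194 raised and 84 lowered, DESeq2 4 and 14, thinning 4 and 4, globin-poor macrophages 3 raised, and leaving out 1 library 0 to 103 raised and 0 to 24 lowered. With the replicate block 2 were raised, and with the crossed replicate numbers, chosen after seeing the data, 3 were raised and 7 lowered. The cause was not tested.

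The interaction gave 350 more positive and 334 more negative genes without a filter, 205 more positive without the top doublet scores, 87 more negative in globin-poor macrophages, and 16 to 300 and 61 to 267 without 1 library. Without Ctrl replicate 1 there were 57 and 64, and without Ctrl replicate 2 there were 16 and 61. Of 140 interaction values of named genes 18 lost the call and 2 reversed: Gria3 was 2.43 in globin-poor macrophages and -7.90 to 1.89 without 1 library. The change of Cma1 was -0.48 without the top doublet scores and -0.38 without mast cell transcripts, that of Bpgm 0.60 in globin-poor macrophages, and that of Suv39h2 -0.16 to 2.26 without 1 library.

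Some differences in marker shares, in points, moved beyond 1 SD, among them Lyve1 from 1.92, and Csf1r from -5.79 and Epcam from -0.412 with a change of sign. At 3000 UMIs they were 8.91 for Lyve1, 0.362 for Ccr2, 0.928 for H2-Ab1, -1.17 for Pf4 and -1.16 for Csf1r, and with at least 1000 genes -0.608 for Mrc1, 8.41 for Lyve1, 0.422 for Epcam, -1.14 for Pf4 and 1.37 for Csf1r. In globin-poor macrophages they were 0.627 for Ccr2, -0.833 for Epcam, 0.217 for H2-Ab1, 1.04 for Il1b and -0.685 for Pf4. Ccr2 was 0.314 with C1q of at least 10, and Epcam 0.0647 with keratins under 2 and 0.0932 without the top doublet scores. Without 1 library Mrc1 lay between -0.245 and 0 and Ccr2 between 0.379 and 0.490. Lower genes in globin-bearing macrophages numbered 88 after thinning in place of 45, and the globin-bearing share difference ran from -15.6 to 9.13 without 1 library. The 2 embryos per genotype and the 79 macrophages of Ctrl replicate 1 limit the precision.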

Other observations

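Among genes with a mean of at least 0.1 UMIs per thinned macrophage, and leaving out the 4 globin genes that divided the macrophages, those that varied most from cell to cell, by variance over mean, were Rn18s-rs5, Fth1, Hmox1, Ftl1, mt-Rnr2, Lyz2, Spp1, Apoe, Malat1, Marco, Cxcl2 and Ccl2 of 5590 ranked. Hmox1 and both ferritin genes, Fth1 and Ftl1, were among the first 4 of this ranking without globin genes. Hmox1 had a median of 12.996, 27.8, 5.59 and 13.3 UMIs per 10000 over macrophages, with 90th percentiles of 65.9, 70.3, 39.2 and 83.4. Marco, a scavenger receptor, averaged 0.114, 0.113, 0.144 and 0.265 UMIs of 5000.

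Beside the 883 macrophages, 57 barcodes past the filter with at least 5 C1q UMIs per 10000 exceeded the keratin limit, and 24 exceeded the collagen limit, 21 of the latter in TKO replicate 1.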
